A study of Mus musculus with 48 samples.

Results

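The genes described here are those that the nucleus contributes to respiratory complexes I, II, III and V, followed in 4 hindlimb muscles of the mouse in adulthood and shortly before birth. A gene was a member if its symbol begins with Nduf, Uqcr or Atp5, or is Sdha, Sdhb, Sdhc or Sdhd, and if it averaged at least 1 CPM (a gene's counts scaled to a common library total) over the 48 libraries. Of 79 genes with such a symbol, 74 were members, among 27179 genes counted. They were 36 subunits of complex I, of which 7 are the nuclear-encoded core subunits, 8 assembly factors of complex I, 3 subunits of complex II, 7 of complex III, 18 genes of complex V, and Ndufa4 with its paralogue Ndufa4l2. Ndufa4 was long counted with complex I and is now placed in complex IV, so the pair is kept apart. Below the minimum lay Ndufb4b at 0.675 CPM, Ndufs6b at 0.474, Sdhd at 0.346, Ndufb4c at 0.170 and Uqcr11 at 0.0243. The part of counting and annotation in these low values was not tested. The members nearest above it were Ndufaf2 at 5.69 CPM and Ndufaf8 at 7.50 CPM.

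All animals were untreated male FVB/NJ mice, an inbred strain. The adult mice gave soleus and vastus intermedius, the slow-biased muscles, and gastrocnemius and vastus lateralis, the fast-biased muscles, and fetuses at E18.5, late in gestation, gave the same 4 muscles. Adult age is given as P56 in the design text and as 3 to 4 months, when the mice were obtained, in the growth protocol. The vasti are muscles of the thigh, and the other pair of the shank, so each limb segment holds a slow-biased and a fast-biased muscle. Each stage had 6 animals, and mRNA of each whole muscle was sequenced as 1 library, so the spread within a group is that between animals, lettered A to F within each stage. Whole muscle also holds vessels, nerve and connective tissue, and in it fewer cells of a type and less RNA per cell cannot be told apart.

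Library totals ran from 14935541 to 32383982 counts. The library labelled as adult vastus intermedius of animal B was left out by the rule that chose the members, because it carried a fetal profile. Embryonic myosin Myh3 stood at 11381 CPM in it, while the other adult vastus intermedius libraries held 4.97 to 18.9 CPM and those at E18.5 held 10968 to 16963 CPM. Its summed member level was 13296 CPM on total counts, against 24613 to 28104 CPM in the other 5 adult libraries of that muscle and 9902 to 15313 CPM at E18.5. In the adults the summed slow fibre markers (Myh7, Tnnt1, Tnni1, Myl3, Myl2 and Tnnc1) stood at 31358 to 53862 CPM in soleus and 6662 to 21850 CPM in vastus intermedius, against 86.2 to 3386 CPM in gastrocnemius and 0.640 to 20.8 CPM in vastus lateralis.

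Complexes I and II pass electrons from NADH and succinate to ubiquinone. Complex III passes them on to cytochrome c, and complex V, the ATP synthase, uses the proton gradient that complexes I, III and IV build to make ATP. Complex II is encoded wholly in the nucleus, whereas complexes I, III and V join nuclear subunits to a few made from mitochondrial DNA. Slow, oxidative fibres rely on this pathway for sustained work, and it expands in skeletal muscle after birth.

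Promoters of 62 of the 74 members were matched in RefSeq (mouse build GRCm38.p6), from 250 bases before to 50 bases after the start. NRF1, ETS-family factors such as GABP, YY1 and ERR alpha are known regulators of nuclear respiratory genes, and 1 short motif of each was searched for on both strands. The NRF1 core GCATGCG was in 17.7% of member promoters, against 4.01% of all 27025 promoters. The ETS motif CCGGAAG was in 22.6% of member promoters, against 9.93% of all, and the YY1 motif AAGATGG in 17.7%, against 7.28%. The ERR motif AAGGTCA was in 12.9%, against 5.38% of all. Among 12413 promoters of expressed genes these shares were 6.47% for the NRF1 core, 17.3% for ETS, 7.69% for YY1 and 4.04% for ERR. A match is a description of the letters and not a binding site. The promoters of Sdhb and of the 3 genes for the c subunit of complex V are given. Sdhb changed strongly with stage and muscle, and the 3 genes, which encode the same mature protein, changed unequally. Motif matches are in capitals (GCATGCG and CCGGAAG in Sdhb, GCATGCG read on both strands in Atp5mc2, AAGGTCA on the opposite strand in Atp5mc3), and the Atp5mc1 window held none of the 4 motifs. In RefSeq the Atp5mc genes stand as Atp5g1, Atp5g2 and Atp5g3. Sdhb lies at chr4:140961021-140961320 on the plus strand, Atp5mc1 at chr11:96075582-96075881, Atp5mc2 at chr15:102670998-102671297 and Atp5mc3 at chr2:73911277-73911576, all 3 on the minus strand, and each is written 5′ to 3′ along its gene.
Sdhb: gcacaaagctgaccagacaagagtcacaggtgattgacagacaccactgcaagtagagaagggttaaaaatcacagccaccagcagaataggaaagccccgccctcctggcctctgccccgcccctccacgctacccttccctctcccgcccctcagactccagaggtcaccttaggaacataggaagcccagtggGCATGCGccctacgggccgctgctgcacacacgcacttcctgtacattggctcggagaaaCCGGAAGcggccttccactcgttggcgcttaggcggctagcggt
Atp5mc1: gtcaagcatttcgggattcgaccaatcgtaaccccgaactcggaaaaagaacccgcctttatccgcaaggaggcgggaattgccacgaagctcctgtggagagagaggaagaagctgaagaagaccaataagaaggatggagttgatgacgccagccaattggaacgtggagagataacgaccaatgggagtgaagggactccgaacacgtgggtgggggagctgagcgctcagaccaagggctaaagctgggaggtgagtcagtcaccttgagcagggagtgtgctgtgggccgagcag
Atp5mc2: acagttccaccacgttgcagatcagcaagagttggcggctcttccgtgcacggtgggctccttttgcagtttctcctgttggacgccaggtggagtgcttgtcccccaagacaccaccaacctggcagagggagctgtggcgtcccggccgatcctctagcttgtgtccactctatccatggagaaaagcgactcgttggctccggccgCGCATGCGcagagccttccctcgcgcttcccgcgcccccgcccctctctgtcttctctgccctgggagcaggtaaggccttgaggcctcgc
Atp5mc3: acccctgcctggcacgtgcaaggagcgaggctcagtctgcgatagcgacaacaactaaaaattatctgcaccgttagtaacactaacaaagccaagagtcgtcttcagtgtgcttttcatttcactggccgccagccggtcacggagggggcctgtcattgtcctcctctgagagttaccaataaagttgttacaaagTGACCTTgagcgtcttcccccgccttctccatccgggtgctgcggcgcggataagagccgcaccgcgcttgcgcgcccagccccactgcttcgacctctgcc

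The summed level of the members was higher in adult than in fetal muscle, and highest in adult vastus intermedius. Levels are CPM scaled by the trimmed mean of M values (TMM), which sets aside genes with extreme ratios between libraries or extreme abundance. It takes most of the remaining genes as unchanged. The summed level of all members averaged 24393 ± 1542 CPM in adult soleus, 34357 ± 3261 CPM in adult vastus intermedius, 24445 ± 3443 CPM in adult gastrocnemius and 22709 ± 2634 CPM in adult vastus lateralis (SD, n = 6, and 5 for vastus intermedius). At E18.5 it averaged 6894 ± 1222 CPM in soleus, 10136 ± 1717 CPM in vastus intermedius, 6193 ± 723 CPM in gastrocnemius and 9265 ± 1292 CPM in vastus lateralis (SD, n = 6 each). Every adult library lay above every E18.5 library. Among the adults, all 5 vastus intermedius libraries, at 30112 CPM or more, lay above every library of the other muscles, whose highest was 28458 CPM. The other 3 adult muscles overlapped. As a share of all counts, with no TMM factor, the adult sums were 21439 ± 1945 CPM in soleus and 26341 ± 1636 CPM in vastus intermedius, against 16179 ± 2677 CPM in gastrocnemius and 13897 ± 909 CPM in vastus lateralis, so soleus then stood second. On that scale adult vastus lateralis, at 12167 to 14630 CPM, overlapped E18.5 vastus lateralis, at 10285 to 14253 CPM.

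On the TMM scale vastus intermedius had the highest mean of the adult muscles in each complex, while the lowest was soleus for complex I and vastus lateralis for complexes II, III and V. Complex I subunits summed to 7088 ± 517 CPM in soleus and 10198 ± 1008 CPM in vastus intermedius, against 7697 ± 991 CPM in gastrocnemius and 7349 ± 892 CPM in vastus lateralis (mean ± SD). Complex II, with 3 members, summed to 2177 ± 132 CPM in soleus and 2967 ± 242 CPM in vastus intermedius, against 1927 ± 346 CPM in gastrocnemius and 1719 ± 161 CPM in vastus lateralis. Complex V summed to 11484 ± 659.5, 15999 ± 1566, 11219 ± 1613 and 10325 ± 1267 CPM in the same order. Complex III summed to 3096 ± 213, 4452 ± 428, 2998 ± 454 and 2704 ± 308 CPM in that order. Taken gene by gene, 68 of the 74 members had their highest adult mean in vastus intermedius and the other 6 in vastus lateralis. The lowest adult mean was in soleus for 37 members, in vastus lateralis for 34 and in gastrocnemius for 3. At E18.5 the highest mean was in vastus intermedius for 66 members and the lowest in gastrocnemius for 68. Of the 8 assembly factors 7 had their lowest adult mean in soleus, as did 20 of the 36 complex I subunits. The assembly factors summed to 158 ± 12.8 CPM in adult soleus, against 212 ± 15.9 CPM in adult vastus lateralis. As a share of all counts, with no TMM factor, this order did not hold, at 138 ± 9.88 CPM in soleus and 131 ± 12.2 CPM in vastus lateralis.

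**Figure D1:**
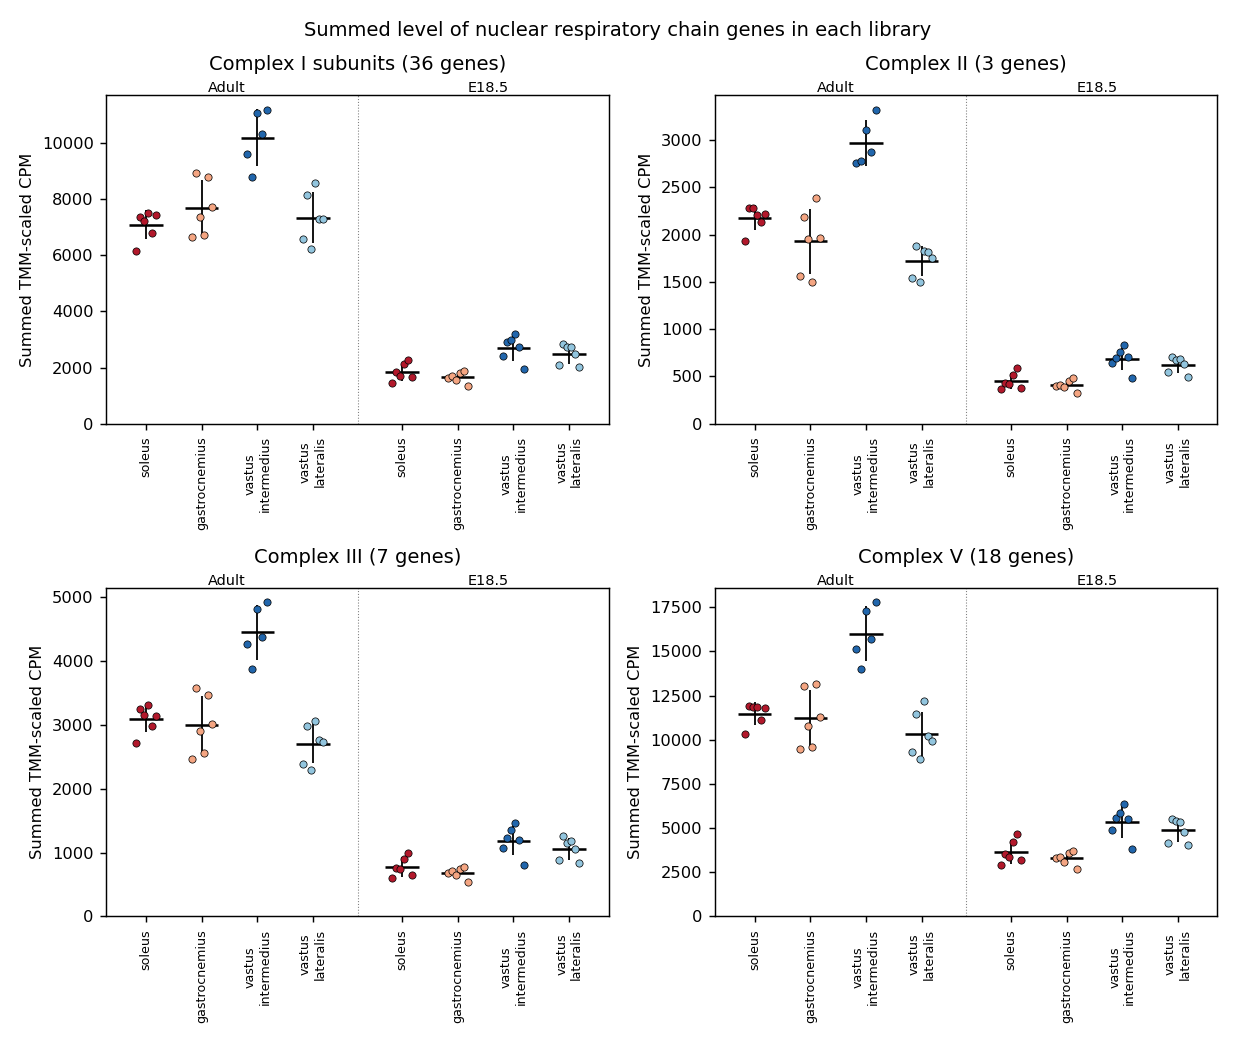
Summed TMM-scaled CPM (vertical axis) of the members of complexes I, II, III and V in each library, by stage and muscle on the horizontal axis; points are libraries, bars the group mean and lines the SD. All adult groups lie above the E18.5 groups in every panel, and adult vastus intermedius is highest, at 15999 ± 1566 CPM for complex V.

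Per kilobase of the deposited gene length (RPKM), which allows genes to be compared as far as those lengths hold, levels spread widely inside each complex. The catalytic beta subunit of complex V, Atp5f1b, was the highest member of its complex, with a mean of 1976 RPKM in adult soleus and 2762 RPKM in adult vastus intermedius. The median member of complex V stood at 506 RPKM in adult soleus and 699.8 RPKM in adult vastus intermedius. Complex I subunits had a median of 194 RPKM in adult soleus, between Ndufa11 at 36.5 RPKM and Ndufb8 at 608 RPKM. Their assembly factors, which build the complex without staying in it, had a median of 10.6 RPKM there. The low place of Ndufa11 rests on its deposited length of 2661 bases. On total counts it averaged 63.1 CPM over the 48 libraries, above Ndufa8 at 20.1 CPM, whose length was 739 bases. In complex II the iron-sulphur subunit Sdhb (567 RPKM in adult soleus) stood above the flavoprotein Sdha (378 RPKM).

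The comparison of adult with E18.5 muscle asks how the pathway changes as muscle matures. Nearly all members were higher in the adult, in every muscle and complex, and about 3-fold in the median. The edgeR quasi-likelihood test with Benjamini-Hochberg adjustment over 16402 genes, at an adjusted p of 0.05, called 72 of 74 members higher in soleus and 2 lower, where 35.7% of all genes were called higher and 39% lower. In vastus intermedius it also called 72 higher and 2 lower (all genes 34.5% and 38.5%). In gastrocnemius 71 were higher and 2 lower (all genes 37% and 41.5%), and in vastus lateralis 71 were higher and 2 lower (all genes 35.2% and 42.8%). The members' median log2 fold change was 1.80 in soleus and 1.73 in vastus intermedius, and 1.96 in gastrocnemius and 1.36 in vastus lateralis, against -0.07, -0.08, -0.12 and -0.20 over all genes tested. These are 3.48-fold, 3.33-fold, 3.88-fold and 2.57-fold. In soleus 69 members had all adult libraries above all E18.5 libraries (26% of 16567 genes), and in gastrocnemius 71 did (29.3%). In all 4 muscles 71 members rose, 2 fell, and Ndufaf2 rose in soleus and vastus intermedius alone. The tags that mark an animal's libraries in the deposited column names are not shared between the stages, so stage and what those tags mark cannot be told apart.

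Markers of fibre types and other cells moved with stage as well. All 5 developmental fibre markers were called lower in the adult in every muscle, and in soleus their summed level was 1621 to 2413 CPM in adults, against 26610 to 49679 CPM at E18.5. Of 6 fibroblast markers 4 were called lower and 2 higher in adult soleus, with a summed level of 1957 to 2467 CPM in adults, against 10035 to 17938 CPM at E18.5. Of 4 satellite cell markers 3 were called lower and 1 higher there, at 21.2 to 29.2 CPM in adults, against 73.5 to 109 CPM at E18.5. None of these ranges overlapped between the stages in soleus. All 5 adipocyte markers and all 6 slow fibre markers were called higher in adult soleus, and in adult vastus lateralis all 6 slow fibre markers were called lower. The part of these markers in the members' difference was not tested.

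These sizes depend on the scaling. With total counts in place of TMM the median of all genes tested moved to -0.78 in soleus and -0.83 in vastus intermedius, and -1.26 in gastrocnemius and -1.27 in vastus lateralis. The members' medians were then 1.09, 0.99, 0.82 and 0.28 in the same order, all above that of all genes. In vastus lateralis 39 members were then called higher and 12 lower. The shares of all genes called, given above, are those with TMM and not with total counts.

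By complex, the rise was smallest in the assembly factors in all 4 muscles, and largest in complex II except in gastrocnemius, where complex III led. The 3 complex II genes had median log2 fold changes of 2.21 in soleus and 2.02 in vastus intermedius, and 2.23 in gastrocnemius and 1.47 in vastus lateralis. Complex III had 2.07, 1.83, 2.28 and 1.45 in the same order, and complex I subunits had 1.86, 1.85, 2.12 and 1.46. The 7 core subunits of complex I alone had 1.94, 2.04, 2.38 and 1.66, above complex II in every muscle but soleus. Complex V had 1.67, 1.61, 1.82 and 1.11, and the assembly factors of complex I had 1.14, 1.07, 1.25 and 1.06. No test was made of these differences between complexes.

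**Figure D2:**
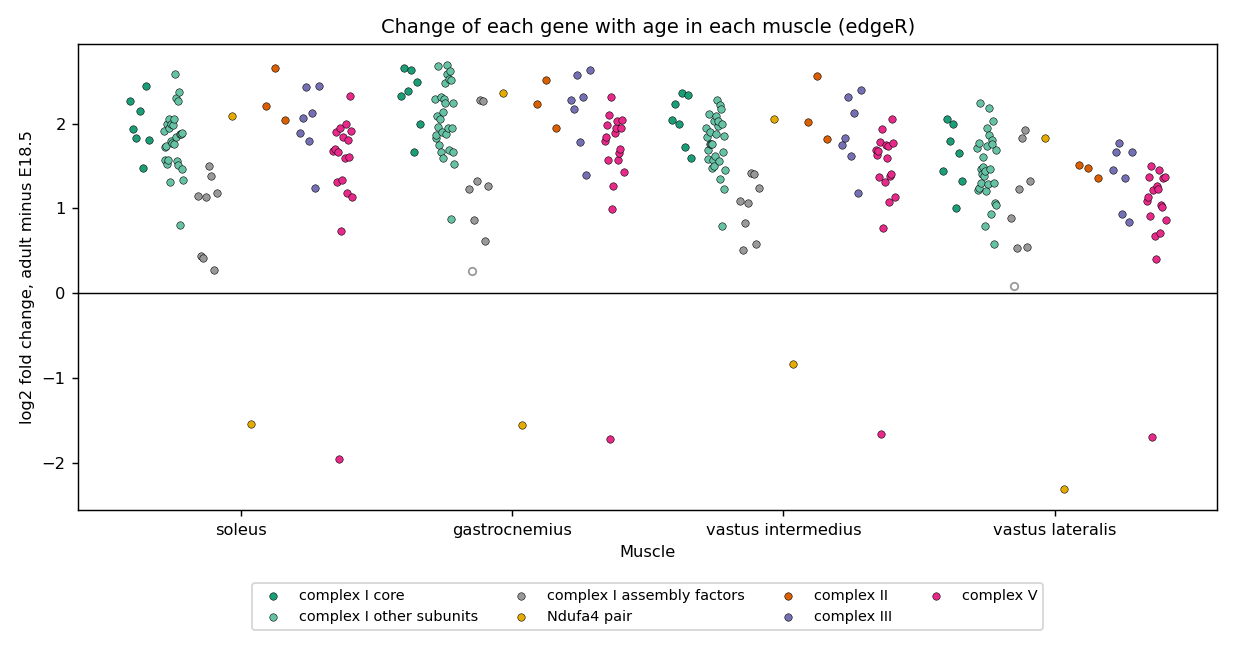
Log2 fold change of adult over E18.5 (vertical axis) of each of the 74 members in each muscle (horizontal axis), coloured by complex; open symbols did not pass the adjusted p of 0.05. Nearly all points lie above 0, with medians of 1.36 to 1.96, and Atp5if1 and Ndufa4l2 lie below 0 in all 4 muscles.

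Among the members that rose most was Sdhb, which holds the iron-sulphur clusters of complex II. It had 506, 622 and 660 CPM (lowest, median and highest, as for every group of 6) in adult soleus, against 81, 91.5 and 123 CPM in E18.5 soleus. The adult and E18.5 ranges lay far apart, with a log2 fold change of 2.65 ± 0.15 (SE; adjusted p = 1.92e-20). In vastus lateralis it had 290.2, 408 and 438 CPM in adults, against 104, 139.8 and 178 CPM at E18.5, again without overlap, with a log2 fold change of 1.47 ± 0.14 (adjusted p = 1.09e-12). Its partners Sdha, the succinate-oxidising flavoprotein, and Sdhc, a membrane anchor, rose by log2 changes of 2.21 and 2.04 in soleus and 1.52 and 1.36 in vastus lateralis.

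In complex I the supernumerary subunit Ndufa13 and the core subunit Ndufs7, which carries the last iron-sulphur cluster before ubiquinone, had the highest mean change over the 4 muscles. Ndufa13 rose by 2.00 ± 0.11 in soleus and 2.68 ± 0.11 in gastrocnemius, and Ndufs7 by 2.15 ± 0.14 and 2.63 ± 0.14. Ndufc2, a small membrane-arm subunit, rose least among the subunits called in all 4 muscles, by 0.80 in soleus and 0.59 in vastus lateralis. Ndufv1, which binds NADH and the flavin, rose by 2.44 in soleus, and Ndufs1, the largest iron-sulphur subunit, by 2.26. Ndufab1, the mitochondrial acyl carrier protein that also serves fatty acid synthesis, rose by 1.77 in soleus and 0.80 in vastus lateralis.

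Assembly factors spread more widely. Ndufaf6 rose by 2.26 ± 0.12 in gastrocnemius and 1.38 ± 0.12 in soleus. Ndufaf7, a methyltransferase needed to build complex I, rose by 0.28 ± 0.10 in soleus (adjusted p = 0.00835), and with total counts its sign turned in all 4 muscles. Ndufaf2 had a log2 fold change of 0.44 ± 0.14 in soleus (adjusted p = 0.00352) and 0.08 ± 0.14 in vastus lateralis (adjusted p = 0.578), also turned by total counts.

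In complex III the core protein Uqcrc1 and the small subunit Uqcrq rose most, by 2.43 ± 0.13 and 2.44 ± 0.15 in soleus. The Rieske iron-sulphur protein Uqcrfs1 rose by 2.13 in soleus and 1.36 in vastus lateralis, and the hinge protein Uqcrh rose least, by 1.24 and 0.84. In complex V the peripheral stalk subunit Atp5pd rose by 2.33 ± 0.13 in soleus, and the catalytic pair Atp5f1a and Atp5f1b by 1.68 and 1.70. Atp5f1b had 3243, 3793 and 3899.7 CPM in adult soleus, against 934, 1071 and 1501 CPM at E18.5, with no overlap.

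Atp5if1 went the other way. It encodes the inhibitor that stops complex V from hydrolysing ATP when the proton gradient collapses. Adult libraries had 9.57, 12 and 15.3 CPM in soleus, 12.9, 14.4, 14.5, 15.8 and 18.1 CPM in vastus intermedius, 11.5, 13.9 and 16.6 CPM in gastrocnemius and 13.3, 14.8 and 17 CPM in vastus lateralis. At E18.5 it had 42, 47.2 and 51.3 CPM in soleus and 41.9, 47.8 and 51.5 CPM in vastus intermedius, with 42.4, 45.6 and 48.2 CPM in gastrocnemius and 44.8, 49.1 and 52.2 CPM in vastus lateralis. Every adult library, up to 18.1 CPM, lay below every E18.5 library, from 41.9 CPM. The log2 fold change was -1.95 ± 0.09 in soleus (adjusted p = 1.06e-23) and -1.65 ± 0.09 in vastus intermedius, with -1.71 ± 0.09 in gastrocnemius and -1.69 ± 0.09 in vastus lateralis, so the fetal level was 3.36-fold the adult one over the 4 muscles. Per length it was the lowest member of complex V in adult soleus, at 22.7 RPKM.

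Ndufa4l2, a paralogue of Ndufa4 known to be induced by hypoxia, also fell. Adult soleus had 5.97, 7.06 and 12 CPM, against 12.1, 16.7 and 54.8 CPM in E18.5 soleus, where 1 library, of animal C, stood far above the others. The ranges did not overlap in soleus (log2 fold change -1.53 ± 0.29, adjusted p = 7.34e-06) or in vastus lateralis, where adults had 2.42, 3.79 and 5.31 CPM, against 13.4, 17.7 and 28.6 CPM at E18.5 (-2.31 ± 0.31, adjusted p = 5.54e-09). In vastus intermedius adults had 7.38, 7.57, 7.79, 8.43 and 10.9 CPM, against 9.57, 14.3 and 19.9 CPM at E18.5; these overlapped, and the log2 fold change was -0.83 ± 0.30 (adjusted p = 0.0133; with the left-out library -0.57 and 0.0908). Ndufa4 rose, by 2.09 ± 0.12 in soleus (adjusted p = 3.1e-20). Of the pair's summed RPKM, Ndufa4l2 made up 1.05 ± 0.377% in adult soleus, against 11.4 ± 7.60% in E18.5 soleus, and 0.510 ± 0.134% in adult vastus lateralis, against 8.44 ± 2.49% at E18.5 (SD, n = 6 each).

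**Figure D3:**
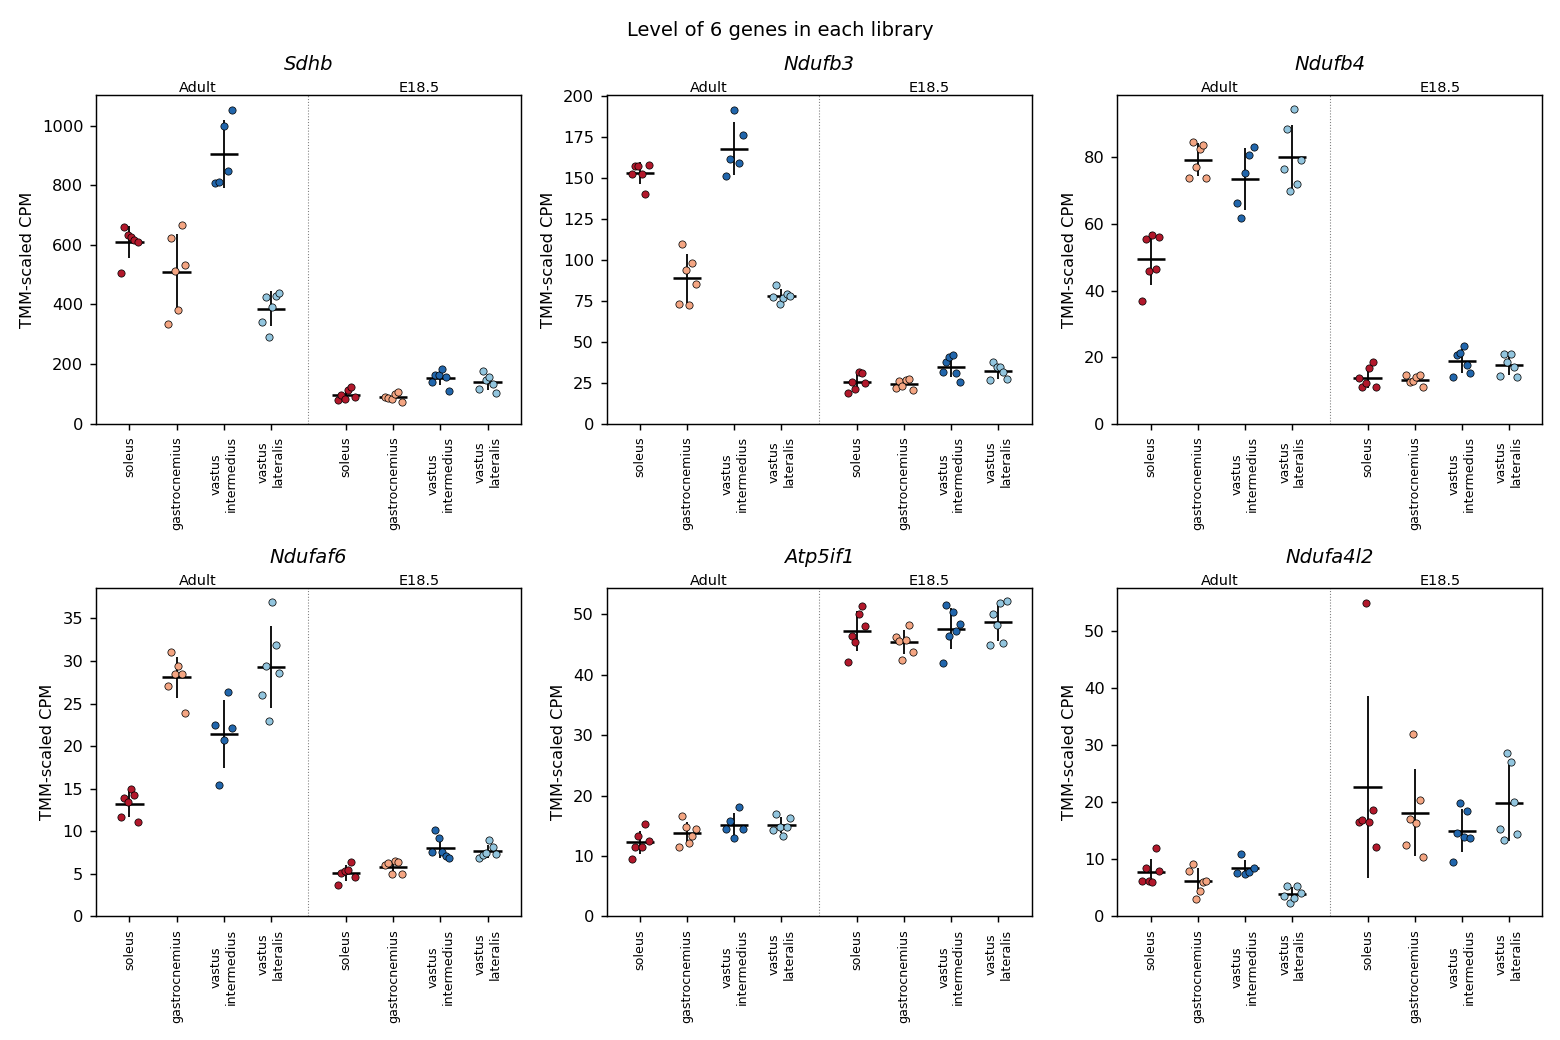
TMM-scaled CPM (vertical axis) of Sdhb, Ndufb3, Ndufb4, Ndufaf6, Atp5if1 and Ndufa4l2 in every library, by stage and muscle on the horizontal axis; points are libraries, bars the group mean and lines the SD. Atp5if1 lies at 9.57 to 18.1 CPM in adults and 41.9 to 52.2 CPM at E18.5, and Ndufb4 is lowest among the adult muscles in soleus.

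The slow-biased muscles were then set against the fast-biased ones in the adults, to ask whether the pathway follows fibre type. Members were higher on the slow-biased side more often than lower, but by little. With soleus and vastus intermedius weighted equally, 44 of 74 were called higher and 5 lower by edgeR, where 35.9% of 14304 genes were called higher and 30.1% lower. The median log2 fold change was 0.24, against 0.08 over all genes tested. Total counts gave 69 higher and 1 lower, with the all-gene median at 0.41 and the members' at 0.58. The shares of all genes given here are those with TMM. Including the left-out library, 14 were called higher and 3 lower. Complex II had 3 of 3 higher (median 0.43), complex III 6 of 7 (0.41), complex V 13 of 18 (0.30) and complex I subunits 19 of 36, with 3 lower (0.22 for the 7 core subunits, 0.23 for the other 29). Of the 8 assembly factors 1 was higher and 2 lower.

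Markers of other cell types moved with this comparison. All 7 endothelial markers tested, of 8 listed, were called higher in the slow-biased muscles (median 0.76), and so were all 6 pericyte and smooth muscle markers (0.92), all 5 leukocyte markers tested, of 6 listed (1.09), all 4 satellite cell markers (1.02), 3 of 4 Schwann cell markers (0.85), 3 of 6 fibroblast markers (0.39) and 1 of 5 adipocyte markers (0.21). None of the listed markers was at 0 in all libraries. Summed endothelial levels were 593 to 698 CPM in adult soleus and 654 to 870 CPM in adult vastus intermedius, against 380 to 569 CPM in gastrocnemius and 291 to 478 CPM in vastus lateralis. Their part in the members' differences was not tested.

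The 2 slow-biased muscles did not contribute alike. In the thigh, vastus intermedius was above vastus lateralis for 58 members and below for 2, where 27.9% of all genes were called higher and 24.3% lower, with a member median of 0.50 against 0.07. In 37 members every vastus intermedius library was above every vastus lateralis library (13.1% of 16567 genes), and in none was it below. These 58 were 28 of 36 complex I subunits, all 3 of complex II, all 7 of complex III, 16 of 18 of complex V, 2 of 8 assembly factors and both of the Ndufa4 pair. In the shank, soleus was above gastrocnemius for 4 members and below for 11, where 27.7% of all genes were called higher and 25.9% lower, with a member median of -0.03 against 0.08. All soleus libraries were above all gastrocnemius libraries for 1 member (12.9%) and below for 6 (16.1%). With the animal as a block, soleus gave 5 higher and 18 lower. The shank balance turned with scaling: upper-quartile scaling gave 12 higher and 9 lower, and total counts 49 higher and 2 lower. The TMM factors were 0.833 to 0.927 in adult soleus and 0.632 to 0.689 in adult gastrocnemius. Leaving them out raises soleus against gastrocnemius for all genes and not for the members alone. The part of this shift in the 49 and 2 was not tested. Including the left-out library, the shank gave 2 higher and 3 lower and the thigh 19 higher and 2 lower.

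The difference between the pairs, the shank log2 fold change minus the thigh one, was tested directly. The shank value was under the thigh value for 46 of 74 members and above it for none, where 6.16% of all genes were called lower and 1.94% higher. Of these 46, Ndufb4 and Ndufaf6 had log2 fold changes below 0 in both segments. At an unadjusted p under 0.05 there were 68. The median was -0.54, against -0.03 over all genes. By complex these were 24 of 36 complex I subunits, 2 of 3 in complex II, 6 of 7 in complex III, 12 of 18 in complex V, 1 of 8 assembly factors and 1 of the Ndufa4 pair. The count rested on few animals: it was 15 without adult animal E, 16 without animal F and 30 without animal B, 30 with total counts, and 0 with the left-out library included.

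**Figure D4:**
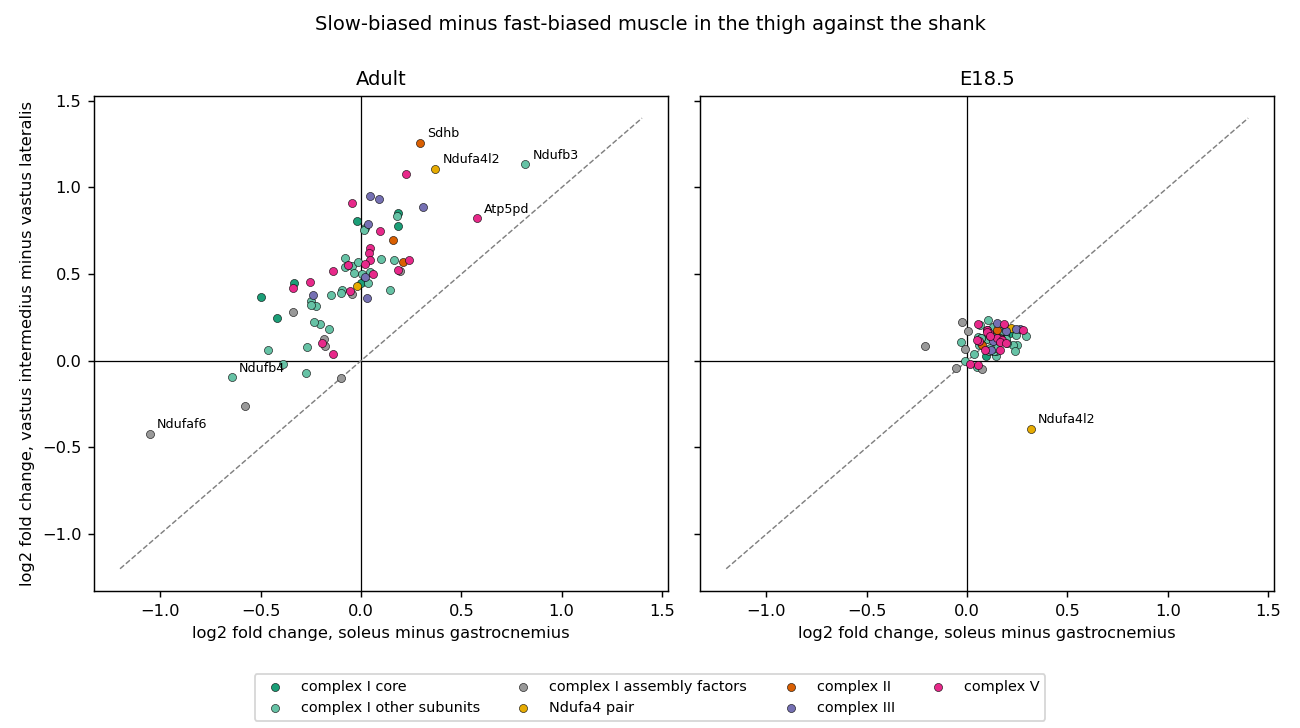
Log2 fold change of soleus over gastrocnemius (horizontal axis) and of vastus intermedius over vastus lateralis (vertical axis) of each member, in adults and at E18.5, with a dashed line of equality; colours mark the complexes. In adults all 74 members lie above the line, the nearest with a difference of only -0.000855 (shank minus thigh). The adult medians are -0.03 for the shank pair and 0.50 for the thigh pair, and at E18.5 the medians are 0.13 and 0.12.

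Sdhb again led complex II. Adult soleus had 506, 622 and 660 CPM and adult vastus intermedius 809, 812, 848, 1000 and 1052 CPM, against 334, 522 and 665 CPM in gastrocnemius and 290.2, 408 and 438 CPM in vastus lateralis. The thigh muscles did not overlap and the shank muscles did. Its log2 fold change was 0.78 ± 0.10 over both pairs (adjusted p = 4.25e-07), 1.26 ± 0.15 in the thigh (adjusted p = 2.13e-07) and 0.30 ± 0.14 in the shank (adjusted p = 0.0789, and 0.0291 with the animal as a block). The difference between the pairs was -0.96 ± 0.20 (adjusted p = 0.00394). With the left-out library included the thigh value was 1.02 (adjusted p = 0.00356) and the difference between the pairs was -0.74 (adjusted p = 0.4). Sdha followed at 0.43 ± 0.07 (adjusted p = 6.25e-06) and Sdhc at 0.39 ± 0.07 over both pairs.

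Ndufb3, a membrane-arm subunit of complex I, had the largest slow-biased excess of its complex, and it was found in both segments. It had 140.5, 155 and 158 CPM in soleus and 151, 159, 162, 176 and 192 CPM in vastus intermedius, against 72.6, 89.6 and 110 CPM in gastrocnemius and 73.1, 77.9 and 84.7 CPM in vastus lateralis. All slow-biased libraries lay above all fast-biased ones, with log2 fold changes of 0.82 ± 0.09 in the shank (adjusted p = 3.39e-08) and 1.13 ± 0.09 in the thigh (adjusted p = 1.22e-09). Atp5pd of complex V was also higher in both, by 0.58 ± 0.11 and 0.82 ± 0.12, with 492, 589 and 609 CPM in soleus, against 312, 377 and 499.7 CPM in gastrocnemius. The other 2 members called higher in both were Uqcrc2, a core protein of complex III (0.31 and 0.88), and Atp5mk, a membrane subunit of complex V (0.24 and 0.58).

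Several subunits went opposite ways in the 2 segments. Ndufs3 and Ndufs7 of the complex I core, Uqcr10 of complex III and Atp5f1e, the epsilon subunit of complex V, picked out after their values were seen, were lower in soleus than in gastrocnemius and higher in the thigh's slow-biased muscle. Ndufs7 had 123, 191 and 208 CPM in soleus, against 189.8, 230.2 and 293 CPM in gastrocnemius. In the thigh it had 242, 293, 311, 346 and 348 CPM in vastus intermedius, against 208, 222 and 274 CPM in vastus lateralis. The ranges overlapped in both segments. Its log2 fold changes were -0.33 ± 0.12 in the shank (adjusted p = 0.0283) and 0.45 ± 0.13 in the thigh (adjusted p = 0.00596). The pairs differed by -0.78 ± 0.18 (adjusted p = 0.00742). The shank call was lost without adult animal B (adjusted p = 0.0709), E (0.126) or F (0.0668) and with upper-quartile scaling (0.0612). The difference of the pairs was lost without animal F (adjusted p = 0.0668). With the left-out library none of these passed, at adjusted p = 0.252 in the shank, 0.45 in the thigh and 0.473 for the difference. With total counts none of these 4 passed in the shank, where Ndufs3 had -0.04 and the sign turned for Ndufs7 (0.05), Uqcr10 (0.14) and Atp5f1e (0.05).

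The 3 complex I subunits lower in the slow-biased muscles were Ndufb4, Ndufa13 and Ndufc1, and the 2 assembly factors were Ndufaf5 and Ndufaf6. Ndufb4 had 36.8, 50.9 and 56.7 CPM in soleus, against 73.8, 79.7 and 84.6 CPM in gastrocnemius, and every soleus library was below every gastrocnemius one (-0.64 ± 0.10, adjusted p = 1.23e-05). In the thigh it had 61.9, 66.2, 75.5, 80.8 and 83.3 CPM in vastus intermedius and 70, 77.9 and 94.4 CPM in vastus lateralis, which overlapped (-0.09 ± 0.11, adjusted p = 0.477). Its near copies Ndufb4b and Ndufb4c lay under the minimum, and reads shared among them could be split by the counting. Ndufa13 and Ndufc1 gave -0.20 ± 0.07 and -0.20 ± 0.08 over both pairs (adjusted p = 0.0103 and 0.0297), and total counts turned both to 0.13.

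Ndufaf6, a factor needed to build complex I, had 11, 13.7 and 15 CPM in soleus and 15.4, 20.8, 22.1, 22.4 and 26.4 CPM in vastus intermedius, against 23.9, 28.5 and 31 CPM in gastrocnemius and 23, 29 and 36.9 CPM in vastus lateralis. Soleus was below gastrocnemius in every library (-1.05 ± 0.12, adjusted p = 1.38e-07), and the thigh muscles overlapped (-0.42 ± 0.13, adjusted p = 0.00767). Ndufaf5, which hydroxylates Ndufs7, was lower in the same 2 comparisons, with -0.58 ± 0.09 and -0.26 ± 0.09. With total counts its thigh value turned to 0.02. Ndufaf2 was the assembly factor called higher, at 0.36 ± 0.10 (adjusted p = 0.00301).

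In complexes III and V most calls were in the thigh, against 2 of 7 and 3 of 18 members called in the shank in either direction. Uqcrfs1, the Rieske protein, had 713, 795, 837, 913 and 980.3 CPM in vastus intermedius, against 395, 455 and 486 CPM in vastus lateralis, without overlap (0.95 ± 0.11, adjusted p = 1.52e-07). In the shank it had 448, 550.2 and 571 CPM in soleus and 426, 529 and 634 CPM in gastrocnemius, with overlap (0.04 ± 0.10, adjusted p = 0.739). Uqcrq and Uqcrc1 gave 0.93 and 0.79 in the thigh. In complex V, Atp5f1b had 4625, 4874, 4888, 5652 and 5913 CPM in vastus intermedius, against 2982, 3261 and 4006 CPM in vastus lateralis, without overlap (0.65 ± 0.12, adjusted p = 5.31e-05; 0.46 and 0.0585 with the left-out library). In the same comparison Ndufa4 was higher by 0.43 ± 0.10 and Ndufa4l2 by 1.11 ± 0.25 (adjusted p = 0.000602).

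The 2 slow-biased muscles, set directly against each other, differed in most members. Soleus was below vastus intermedius for 66 of 74 members and above for none, where 11.6% of all genes were called lower and 5.61% higher. The member median was -0.48, against 0.00 over all genes, and for 56 members every soleus library lay below every vastus intermedius library (5.87%). The 66 held 35 of 36 complex I subunits, 5 of 8 assembly factors, all 3 of complex II, all 7 of complex III, 15 of 18 of complex V and 1 of the Ndufa4 pair. Atp5mc1 gave -0.83 ± 0.14 (adjusted p = 0.000233; with the left-out library -0.65 and 0.0688), whereas Ndufb3 (-0.14 ± 0.09, adjusted p = 0.305) and Atp5pd (-0.18 ± 0.12, adjusted p = 0.316) did not pass. Total counts called 32, and with the left-out library 3 were called, namely Atp5if1, Atp5mj and Ndufaf3, all lower in soleus. For gastrocnemius minus vastus lateralis no member was called, where 5.64% of all genes were called in either direction; 6 members had an unadjusted p under 0.05 by edgeR, and DESeq2 called 0. The member median was 0.04. With total counts Ndufs1 and Sdhb were called higher in gastrocnemius.

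Before birth few genes of any kind were called between slow-biased and fast-biased muscles, and no member was. For soleus and vastus intermedius against gastrocnemius and vastus lateralis at E18.5 edgeR called 0 of 74 (0.368% of 15751 genes), with 6 at an unadjusted p under 0.05 and 0 by DESeq2. The member median was 0.13, with 69 of 74 members above 0. Of the 6 slow fibre markers edgeR also called 0, with 6 at an unadjusted p under 0.05. The lack of calls therefore does not show a lack of difference. With the animal as a block, Atp5mc1 was called, at 0.22 (adjusted p = 0.0425). Soleus minus gastrocnemius gave 0 (all genes 0.286%; 2 members at an unadjusted p under 0.05; 0 by DESeq2). Vastus intermedius minus vastus lateralis gave 0 (all genes 0.0317%; 0 members at an unadjusted p under 0.05; 0 by DESeq2). Sdhb gave 0.13 ± 0.09 over both pairs, with a 95% interval of -0.06 to 0.31, and Ndufb3 gave 0.10 ± 0.09 (-0.08 to 0.28).

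Between limb segments most members differed at E18.5. This contrast was added after the data were seen. The thigh muscles were above the shank muscles for 69 of 74 members and below for none, where 14.1% of all genes were called higher and 10.7% lower. The member median was 0.54, against -0.03 over all genes, and leaving out each animal in turn gave 65 to 68. In 45 members every vastus lateralis library was above every gastrocnemius library (4.5%), but in 3 every vastus intermedius library was above every soleus library (1.41%). Complex I had 35 of 36 subunits higher (median 0.54), the assembly factors 6 of 8 (0.32), complex II 3 of 3 (0.60), complex III 7 of 7 (0.62) and complex V 17 of 18 (0.53), with Ndufa4 the remaining one.

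Sdhb had 111, 159.9 and 182 CPM in E18.5 vastus intermedius and 104, 139.8 and 178 CPM in vastus lateralis, against 81, 91.5 and 123 CPM in soleus and 71.1, 87.7 and 106 CPM in gastrocnemius (0.63 ± 0.09, adjusted p = 3.35e-05). Ndufb10, a membrane-arm subunit of complex I and the member with the largest difference, had 74.8, 132 and 144 CPM in vastus intermedius and 75.5, 123 and 133 CPM in vastus lateralis, against 42.8, 60.8 and 86.5 CPM in soleus and 35.2, 53.6 and 66.3 CPM in gastrocnemius (1.00 ± 0.13, adjusted p = 1.25e-05). Both genes overlapped between thigh and shank in single libraries. Neither Atp5if1 (0.04 ± 0.04, adjusted p = 0.489) nor Ndufa4l2 (-0.25 ± 0.22, adjusted p = 0.442) passed. Other genes moved with this contrast: 6 of 7 fast fibre markers (median 1.27) and 4 of 5 developmental fibre markers were called higher in the thigh. By edgeR 0 of 6 slow fibre markers and 0 of 7 endothelial markers were called, and 0 of either at an unadjusted p under 0.05. In either direction 3 of 4 satellite cell, 1 of 6 fibroblast and 1 of 6 leukocyte markers were called. Pericyte and smooth muscle markers had 0 of 6 called and Schwann cell markers 0 of 4. Their part in the members' difference was not tested.

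In the adults the thigh was above the shank for 40 members and below for none, where 11.6% of all genes were called higher and 7.55% lower, with a median of 0.22 against -0.01. This count was unstable, at 12 without animal F, 15 without animal D, 22 without animal E, 2 with total counts (Ndufc1 and Ndufs3) and 0 with the left-out library. It held 26 complex I subunits, 4 assembly factors, none of complex II, 2 of complex III and 7 of complex V. Fibre markers moved with this contrast: all 6 slow fibre markers were called lower in the thigh (median -4.97), and of 7 fast fibre markers 5 were called higher and 1 lower (0.91). Their part in the members' difference was not tested.

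Whether the slow-biased excess itself changed between the stages was tested as an interaction over all 47 libraries. It was larger in the adults for 9 members and smaller for 5, where 26.6% of all genes were called higher and 24.2% lower, with a member median of 0.06 against 0.08. Total counts, which move all genes and not the members alone, gave 59 higher and 1 lower, whereas these shares of all genes are those with TMM. With the animal as a block there were 22 higher and 6 lower. The 9 were Ndufb3 (0.84 ± 0.11, adjusted p = 3.31e-08), Ndufa4l2 (0.74), Sdhb (0.62 ± 0.14, adjusted p = 0.000325), Atp5pd (0.53), Atp5mc3 (0.48), Ndufab1 (0.44), Uqcrc2 (0.34), Ndufv1 (0.32) and Sdhc (0.28). The 5 were Ndufaf6 (-0.70 ± 0.12, adjusted p = 4.92e-06), Ndufaf5 (-0.60), Ndufb4 (-0.47), Ndufa13 (-0.40) and Ndufc1 (-0.34). With the left-out library Sdhb had 0.51 (adjusted p = 0.0516). With the animal as a block the change also passed for Sdha (0.26, adjusted p = 0.0102), Ndufs1 (0.29), Uqcrfs1 (0.31), Uqcrq (0.30), Uqcrc1 (0.23), Atp5f1a (0.27) and Ndufaf2 (0.32).

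The c subunit forms the rotating ring of complex V, and 3 genes encode the same mature protein with different import sequences. The 3 moved unequally with stage. Atp5mc1 rose by 1.95 ± 0.17 in soleus (adjusted p = 3.66e-14) and 1.22 ± 0.17 in vastus lateralis (adjusted p = 7.55e-09). Atp5mc2 rose by 0.74 ± 0.09 and 0.68 ± 0.09 (adjusted p = 2.37e-09 and 1.61e-08), and Atp5mc3 by 1.34 ± 0.12 and 0.41 ± 0.12 (adjusted p = 3.28e-13 and 0.0025). With total counts the vastus lateralis values of Atp5mc2 and Atp5mc3 turned to -0.40 and -0.68. Because the genes share sequence, reads could be split among them by the counting.

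Their shares of the summed RPKM do not depend on the scaling between libraries. Atp5mc1 held 29.5 ± 2.07% in adult soleus, 33 ± 1.13% in adult vastus intermedius, 32.9 ± 0.702% in adult gastrocnemius and 33.9 ± 1.69% in adult vastus lateralis (SD, n = 6, and 5 for vastus intermedius). At E18.5 it held 20.6 ± 1.68% in soleus and 23.5 ± 1.64% in vastus intermedius, against 18.7 ± 1.63% in gastrocnemius and 23.0 ± 2.19% in vastus lateralis. The lowest adult share, 26.9%, was above the highest E18.5 share, 25.3%. Atp5mc3 held the largest share everywhere, at 56.7 to 63.7% in the adult means and 67.7 to 69.3% in the E18.5 means. In the adults Atp5mc2 held 6.77% in soleus and 5.20% in vastus intermedius, against 8.57% in gastrocnemius and 9.43% in vastus lateralis. Between slow-biased and fast-biased adult muscles Atp5mc3 (0.65 ± 0.09, adjusted p = 4.51e-07) and Atp5mc1 (0.43 ± 0.10, adjusted p = 0.000553) were higher, and Atp5mc2 did not pass (-0.05 ± 0.06, adjusted p = 0.533).

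**Figure D5:**
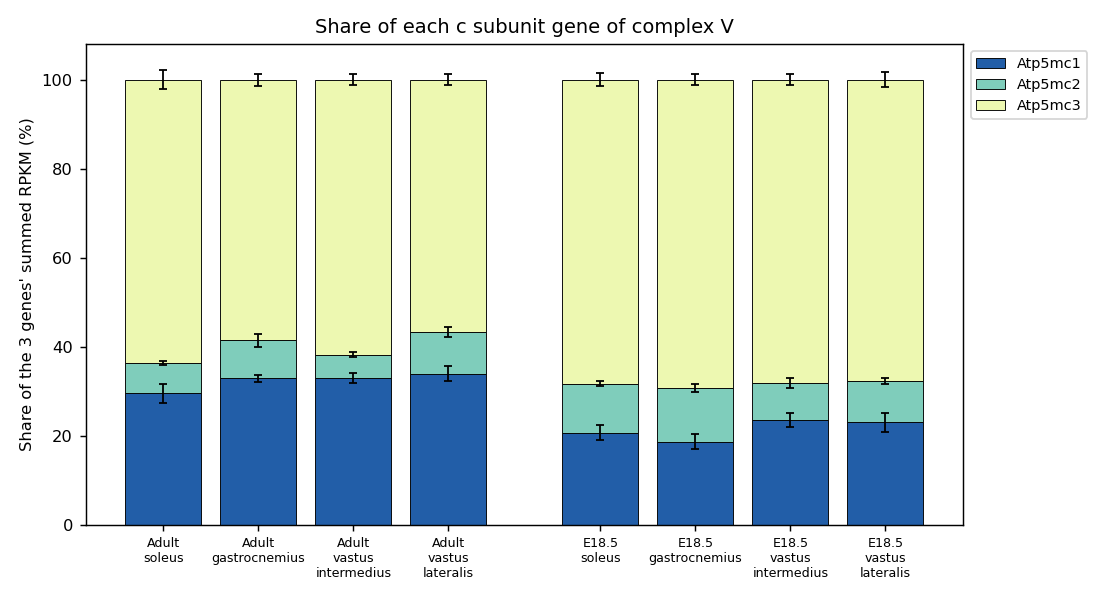
Share of Atp5mc1, Atp5mc2 and Atp5mc3 in their summed RPKM (vertical axis, percent) in each stage and muscle; stacked bars are group means and lines the SD over libraries. The Atp5mc1 share is 29.5 to 33.9% in the adult groups and 18.7 to 23.5% at E18.5.

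Genes outside the rule that serve the same pathway were read from the same fits. The 10 mitochondrially encoded subunits of complexes I, III and V were all called higher in adult than in E18.5 muscle, with medians of 2.57 in soleus and 2.66 in vastus intermedius, and 2.51 in gastrocnemius and 2.25 in vastus lateralis. In the adults 5 of them were higher in the slow-biased muscles (median 0.33) and none lower, and 6 in vastus intermedius against vastus lateralis (0.65). Between soleus and gastrocnemius, and for the change with stage of the slow-biased excess, edgeR called 0 of 10, with 0 at an unadjusted p under 0.05 in either; these lists were read from the edgeR fits alone. Other complex I assembly factors gave 8 of 10 higher in adult soleus than at E18.5, complex II assembly factors 4 of 4, cytochrome c with cytochrome c1 and complex III assembly 8 of 8, and complex V assembly 3 of 4. Mitochondrial content genes such as citrate synthase and porins gave 12 higher and 1 lower of 16 there.

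The same lists were higher in vastus intermedius than in vastus lateralis for 5 of 10 other complex I assembly factors, 2 of 4 complex II factors, 5 of 8 cytochrome c and complex III genes, 3 of 4 complex V factors and 11 of 16 content genes, with 0, 1, 2, 0 and 1 lower. For soleus minus vastus intermedius they gave none higher, and 6, 2, 8, 4 and 12 lower. At E18.5 the thigh was higher for 14 of 16 content genes and 15 of 15 mitochondrial ribosomal proteins tested.

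The authors' deposited table for adult slow-biased against fast-biased muscle has 37 members with a positive and 3 with a negative log2 fold change at an adjusted p under 0.05, with a median of 0.24. The authors' deposited table for E18.5 has 0 of 74, with a median of 0.13. In the authors' deposited tables of stage, coded as E18.5 over adult, 72 members are negative and 2 positive in the slow-biased muscles, and 71 negative and 2 positive in the fast-biased muscles.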

How the data were processed

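mRNA of 48 whole muscle samples was sequenced from poly-A selected libraries (RNA integrity number above 7), per the labels' protocols. The authors deposited whole-number counts per gene, with gene lengths, and tables of their comparisons, with log2 values and p-values. The submitters' processing notes name FastQC 0.11.5, Trimmomatic 0.39.0, STAR 2.7.11, Subread 2.0.6, DESeq2 1.44.0 and mm10; for strand setting and annotation, nothing is given in the sources used here. Reads of near copies (Ndufs5 and Ndufs5-ps, Ndufb4, Ndufs6), of genes that share sequence (the Atp5mc genes) or of overlapping genes may therefore be split. Symbols came from the deposited tables for 18780 genes and from RefSeq for 6501; 1898 rows had none. The matrix was fitted with edgeR 4.0.16 in R 4.3.3 (TMM, filterByExpr, quasi-likelihood F-tests, Benjamini-Hochberg over all genes tested, threshold 0.05): 1 fit per stage with 4 muscle levels for the muscle contrasts, and 1 fit of all 8 groups for stage. SE is the log2 fold change divided by the root of F. Totals were 14935541 to 32383982 counts, and the 1 library with a fetal profile was left out. CPM uses TMM-scaled totals and RPKM divides by the deposited length; summed levels and shares carry no test.

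Libraries whose column names share a tag were taken as 1 animal, lettered A to F. Their deviations correlated at a mean of 0.149 in adults and 0.25 at E18.5, with lowest pairs at -0.21 and -0.186, against means of -0.0301 and -0.049 between tags. Alternatives were DESeq2 1.42.0, upper-quartile or no scaling factor, no low-count filter, fits of only the 2 groups compared, the animal as a block, each animal left out, and the left-out library included. The fits were checked on simulated counts.

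Named genes were, per complex, the 2 highest and 2 lowest called in adult slow-biased minus fast-biased and in adult minus E18.5, every member called against its complex, every member called at E18.5 and a fixed set; genes named beyond these, and the thigh minus shank contrasts, were chosen after their values were seen. The members and the gene lists were chosen with earlier results of these data known.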

Additional observations from a re-analysis of the deposited data

Results flagged for a closer look

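The slow-biased minus fast-biased log2 fold change differed between limb segments for 46 members in adults, and the shank value was under the thigh value in all 46. Of all genes, 6.16% were called lower and 1.94% higher. The count was 15 to 49 when each animal was left out in turn, and no member was called with the left-out library included. The difference of the log2 fold changes (shank minus thigh) was -0.96 for Sdhb, -0.95 for Atp5mc1, -0.86 for Atp5mc3, -0.75 for Uqcrc1, -0.61 for Atp5f1b, -0.54 for Sdha and -0.45 for Ndufa4.

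The slow-biased excess differed between adult and E18.5 muscle for 14 members, 9 higher and 5 lower in the adult, where 26.6% of all genes were called higher and 24.2% lower. The adult-minus-E18.5 difference was 0.84 for Ndufb3, 0.74 for Ndufa4l2, 0.62 for Sdhb, 0.53 for Atp5pd, 0.48 for Atp5mc3, 0.44 for Ndufab1, 0.34 for Uqcrc2, 0.32 for Ndufv1 and 0.28 for Sdhc. It was -0.34 for Ndufc1, -0.40 for Ndufa13, -0.47 for Ndufb4, -0.60 for Ndufaf5 and -0.70 for Ndufaf6.

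A single library stood apart from the rest of its group, by Dixon's test of the gap over the range, in 13 of 288 gene and group combinations. This was so in 0 of 40 summed levels of complexes. The genes were measured in the same libraries, so the flags are not independent and their number cannot be set against chance. Of the 13, 5 were the lowest value of 1 library, adult soleus of animal A: Atp5f1b at 3243 CPM, Sdhb at 505.8 CPM, Ndufv1 at 422 CPM, Uqcrq at 182 CPM and Ndufs7 at 123 CPM. Ndufb3 was lowest in adult soleus of animal E, at 140.5 CPM. Ndufaf5 was highest in adult vastus intermedius of animal E, at 50.3 CPM, and in adult vastus lateralis of animal A, at 53.2 CPM. At E18.5, Ndufa4l2 was highest in soleus of animal C, at 54.8 CPM, and Ndufaf7 in vastus lateralis of animal B, at 18.1 CPM. Ndufaf2 was highest in E18.5 gastrocnemius of animal F, at 6.45 CPM, and in E18.5 vastus intermedius of animal D, at 6.81 CPM, and Ndufv3 was lowest in E18.5 gastrocnemius of animal F, at 37.5 CPM.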

How the results depend on the processing

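The total of members called between adult and E18.5 muscle, direction aside, stayed within 1.5 times of the reported count in each muscle under every alternative run, although in vastus lateralis total counts turned 71 higher and 2 lower into 39 and 12. With total counts in place of TMM, 51 members were called between soleus and gastrocnemius, 30 in the difference of the pairs, 32 between soleus and vastus intermedius, 2 between gastrocnemius and vastus lateralis, 2 between adult thigh and shank and 60 in the change with stage; the cause was not tested. With the left-out library, adult slow-biased minus fast-biased gave 17, soleus minus gastrocnemius 5, vastus intermedius minus vastus lateralis 21, the difference of the pairs 0, soleus minus vastus intermedius 3, adult thigh minus shank 0 and the change with stage 9. The replicate block, pairing libraries of 1 animal, gave 23 for soleus minus gastrocnemius, 1 for E18.5 slow-biased minus fast-biased and 28 for the change with stage; among 216 values of named genes in 6 comparisons it added 15 calls, took away 1 (Ndufaf7 in soleus minus vastus intermedius, adjusted p = 0.059) and moved no other count by over 1.5 times. The 1 call at E18.5 was Atp5mc1 (0.22, adjusted p = 0.0425). DESeq2 and upper-quartile scaling each gave 22 for the change with stage.

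Leaving out each animal in turn gave 45 to 52 for slow-biased minus fast-biased, 12 to 20 for soleus minus gastrocnemius, 55 to 60 for vastus intermedius minus vastus lateralis, 15 to 49 for the difference of the pairs, 51 to 66 for soleus minus vastus intermedius, 0 to 0 for gastrocnemius minus vastus lateralis, 12 to 43 for adult thigh minus shank, 65 to 68 for E18.5 thigh minus shank, 0 to 0 for the other E18.5 contrasts, 73 to 74 for stage in soleus and in gastrocnemius, 74 to 74 in vastus intermedius, 73 to 73 in vastus lateralis and 12 to 20 for the change with stage. The thigh minus shank alternatives were added after the data were seen.

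Of 5400 values of named genes under alternatives, 5022 kept direction and side of the threshold, 92 newly passed, 243 no longer passed and 43 turned sign, all 43 with total counts. For slow-biased minus fast-biased these were Atp5if1 0.28, Atp5mc2 0.29, Ndufa13 0.13, Ndufaf3 0.31, Ndufaf7 0.29 and Ndufc1 0.13. For soleus minus gastrocnemius they were Atp5f1d 0.32, Atp5mc1 0.33, Atp5mf 0.24, Ndufa4 0.36, Ndufaf1 0.33, Ndufs7 0.049 and Ndufv3 0.34, and for vastus intermedius minus vastus lateralis Ndufa13 0.28 and Ndufaf5 0.018. For stage in vastus lateralis they were Atp5f1a -0.0033, Atp5f1d -0.18, Atp5mc2 -0.40, Atp5mc3 -0.68, Ndufab1 -0.28, Ndufaf1 -0.19, Ndufaf2 -0.99, Ndufaf3 -0.56, Ndufaf7 -0.53, Ndufc2 -0.49, Ndufv3 -0.042, Uqcrc2 -0.15 and Uqcrh -0.24. In gastrocnemius they were Atp5mc2 -0.15, Ndufaf2 -0.87, Ndufaf3 -0.26, Ndufaf7 -0.52 and Ndufc2 -0.26; in soleus Ndufaf2 -0.27, Ndufaf3 -0.28 and Ndufaf7 -0.44; and in vastus intermedius Ndufaf2 -0.24 and Ndufaf7 -0.16. For the change with stage they were Atp5if1 0.28, Atp5mc2 0.31, Ndufa4 0.35, Ndufc1 0.041 and Ndufs7 0.32. Ndufaf2 had the fewest counts of the members, 6447 over the 48 libraries.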

Other observations

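Of genes that the rule names but its minimum left out, Sdhd, the other membrane anchor of complex II, had 392 counts over the 48 libraries and Uqcr11 of complex III had 27. Ndufs5-ps, a copy of Ndufs5 outside the rule, averaged 28.2 CPM.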
